A study of Mus musculus with 9 samples.

Results

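The data compared here are the transcriptomes of plasmacytoid dendritic cells (pDC) and of type 2 conventional dendritic cells (cDC2) from mouse spleen. They are 6 of the 9 libraries of the series, the 3 libraries labelled pDC and the 3 labelled CD8-negative, and the members were chosen by these labels and not by any measured value. The mice were unstimulated C57BL/6J animals, a wild-type strain, of young adult age by the study's methods, while the labels give none. Each library came from a pool of 15 to 17 spleens, so a library averages over animals and says nothing of the spread between them. After magnetic depletion of cells carrying lineage antigens (CD3, Thy-1, Ly6G/Ly6C and TER-119 among them, as the methods name them), pDC were sorted as cells with intermediate CD11c, high CD317 and no CD11b, and cDC2 as cells with high CD11c, low CD317, CD11b and no CD8. These gates are those of the study's results, while the sorting panel in its methods lists CD45RA and not CD317. That panel also held an antibody to CD49b, an antigen of NK cells, with its gate not given in the text used here. The same replicate number carries the same date code in both subsets, so each number stands for 1 sort and gives 1 pair. Polyadenylated RNA was read over 75 bases, and the authors deposited raw read counts for 39179 genes, of which 13819 had enough counts for a test. Levels are given as CPM, read counts scaled to a common library size after TMM normalization for composition, and in the order of replicates 1, 2 and 3. Differences are log2 fold changes of pDC minus cDC2 with their standard error (SE) from edgeR's quasi-likelihood test, and a gene is called higher or lower where its p was under 0.05 after Benjamini-Hochberg adjustment across the genes tested.

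Plasmacytoid dendritic cells are specialized in the detection of viral nucleic acids in endosomes, through Toll-like receptors (TLR) 7 and 9, and can release large amounts of type I interferon. They resemble antibody-secreting cells in shape and share genes with the lymphoid lineage, and their identity depends on the E protein TCF4. Conventional cDC2 take up and process antigen and present it on major histocompatibility complex (MHC) class II to CD4+ T cells, with costimulatory ligands and cytokines. In the spleen cDC2 lie close to macrophages and NK cells, and some NK cells carry CD11b and low CD11c, so RNA from both cell types was looked for in the libraries.

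The labels were checked first against 4 marker genes. Siglech, a sialic acid-binding lectin of mouse pDC, stood at 4815, 5110.0 and 4330.4 CPM in pDC and 22.7, 11.5 and 16.8 CPM in cDC2 (log2 fold change 8.13, SE 0.31, adjusted p = 9.72e-08). Bst2, which encodes the sorting antigen CD317, stood at 2299, 2499 and 2176 CPM in pDC and 73.1, 68.5 and 62.4 CPM in cDC2 (log2 fold change 5.09, SE 0.13, adjusted p = 2.52e-08). Both genes were high in all 3 pDC libraries, and no pDC library overlapped with a cDC2 library. Itgam, the gene of CD11b, stood at 13.7, 6.64 and 13.4 CPM in pDC and 237, 248 and 221 CPM in cDC2 (log2 fold change -4.38, SE 0.33, adjusted p = 3.98e-06), again without overlap. Sirpa, a receptor for CD47 used to mark cDC2, differed less, at 536, 514 and 509.7 CPM in pDC and 1023, 919 and 953 CPM in cDC2 (log2 fold change -0.89, SE 0.19, adjusted p = 0.00356), and its pDC level was far from absent. Itgax (CD11c) was lower in pDC (log2 fold change -1.70, SE 0.13, adjusted p = 4.17e-06), and Cd8a was higher in pDC (log2 fold change 3.99, SE 0.18, adjusted p = 1.87e-07). By the study's results CD317, CD11b and CD11c were gates for both subsets and CD8 was one for cDC2, though the panel in its methods does not list CD317. Bst2, Itgam, Itgax and Cd8a are thus read as a check of the sort and not as a finding.

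**Figure D1:**
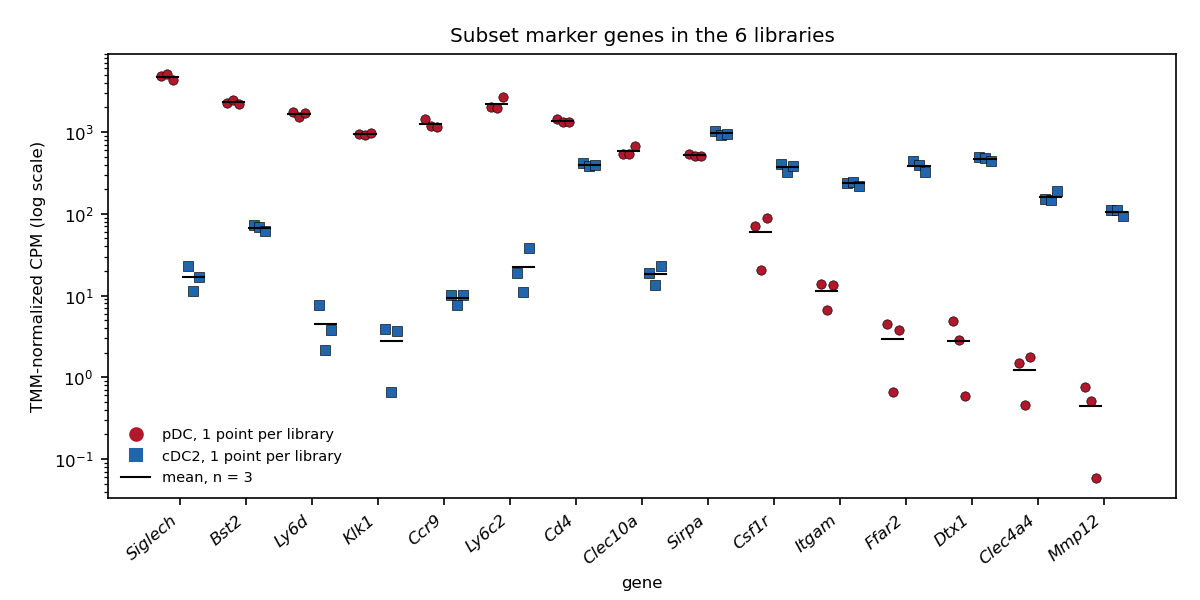
Levels of 15 subset marker genes, in TMM-normalized CPM on a log scale, with 1 point per library (red circles for pDC, blue squares for cDC2) and a bar at the mean of 3. The libraries of the subsets do not overlap for any of the 15 genes, and Cd4 and Clec10a, which are listed as cDC2 markers, sit higher in pDC.

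Total counts on genes lay between 17104516 and 32453789 per library, so 3 counts, taken as the floor, correspond to between 0.0908 and 0.177 CPM in pDC (counting error alone). NK cell RNA was unequal over the cDC2 libraries. Ncr1, the gene of the NK receptor NKp46, stood at 1.66, 0.963 and 1.89 CPM in pDC and 2.33, 6.51 and 10.4 CPM in cDC2 (log2 fold change -2.08, SE 0.53, adjusted p = 0.00897), highest in cDC2 replicate 3. The 5 defining NK genes (Ncr1, Klrb1c, Eomes, Gzma and Prf1) summed to 17.2, 9.53 and 41.8 CPM in pDC and to 19.8, 31.9 and 78.1 CPM in cDC2, so pDC replicate 3 lay above 2 of the cDC2 libraries. Of these 5, Ncr1 alone was called, and with the replicate number fitted as a block Klrb1c, Eomes and Gzma were lower too (adjusted p = 0.01399, 0.0215 and 0.0305), Eomes also without pDC replicate 3 or cDC2 replicate 1. Itga2, the gene of CD49b, stood at 0.484, 0.304 and 0 CPM in pDC and 0.223, 0.490 and 0.744 CPM in cDC2 and was not called (adjusted p = 0.590). The summed level of the 34 NK marker genes was 724, 754 and 911 CPM in cDC2 and 239, 225 and 355 CPM in pDC, and 14 of the 33 tested were lower in pDC, or 9 without cDC2 replicate 3. Ccl5 alone, a chemokine gene on that list, made up 367, 318 and 321 CPM of the sum in cDC2 and 12.4, 6.94 and 24.7 CPM in pDC. The 27 macrophage marker genes summed to between 290.2 and 744 CPM in pDC and between 1271 and 1784 CPM in cDC2, with 2 higher and 5 lower in pDC (10 lower without pDC replicate 3, and 13 when the replicate number was fitted as a block). The 6 defining macrophage genes (C1qa, C1qb, C1qc, Vcam1, Spic and Cd5l) summed to 122, 25.6 and 146 CPM in pDC and to 299, 146 and 239 CPM in cDC2, lowest in replicate 2 of each subset. Of these 6 genes Spic was called (log2 fold change -1.67, SE 0.32, adjusted p = 0.00200), and C1qa, at 16.8, 4.05 and 25.04 CPM in pDC and 61.1, 28.01 and 38.6 CPM in cDC2, was not (adjusted p = 0.0776), although in the fit with that block C1qa, C1qb, C1qc and Vcam1 passed the threshold (adjusted p = 0.00186, 0.000428, 0.000596 and 0.0334), C1qa and C1qb also without pDC replicate 3 and C1qb without cDC2 replicate 2. Immunoglobulin RNA was higher in pDC, with 118 of 148 immunoglobulin genes tested called higher and 0 lower, and the constant segments summed to 4631, 7384 and 4542 CPM in pDC against 618, 692 and 582 CPM in cDC2. None of the 5 NK and 6 macrophage defining markers was at the floor in a library, and the part of this RNA in the results was not tested. In bulk RNA, fewer cells of a type and less RNA per cell cannot be told apart.

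**Figure D2:**
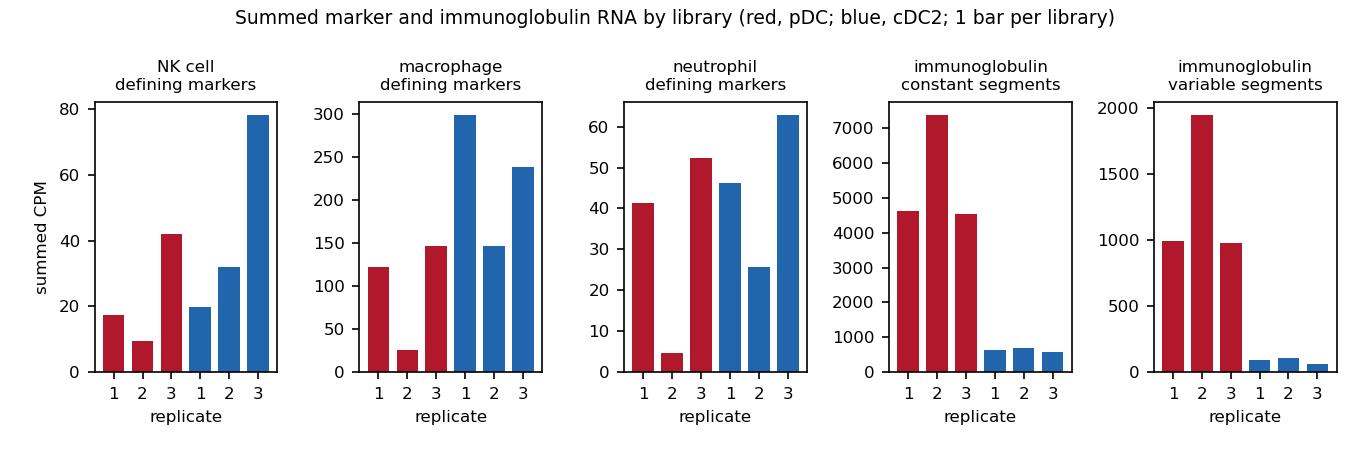
Summed TMM-normalized CPM of the defining marker genes of NK cells (5 genes), macrophages (6 genes) and neutrophils (5 genes) and of immunoglobulin constant and variable segments, with 1 bar per library (red for pDC, blue for cDC2). The NK sum is highest in cDC2 replicate 3, the macrophage and neutrophil sums are lowest in replicate 2 of each subset, and the immunoglobulin sums are highest in pDC replicate 2.

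Nearly as many genes were higher as lower in pDC. Of the 13819 genes tested, 6328 were called (45.8%), with 3107 higher in pDC (22.5%) and 3221 lower (23.3%). Counts given below for gene lists are to be read beside these shares. The same direction held in all 3 pairs for 3093 of the genes called higher and for 3200 of those called lower, and the groups did not overlap for 3071 and 3175. Over all 13819 genes tested, called or not, the groups did not overlap for 7755. The called genes were picked by the test, so neither count is separate support for the calls. Many differences were large, since the absolute log2 fold change was at least 3 for 673 genes higher and 910 genes lower, and at least 5 for 249 and 268. The genes called higher made up 43.4% of the RNA counted in pDC and 17.7% in cDC2, and the genes called lower 20.5% and 45.2%. Without the immunoglobulin genes 2989 genes (21.9% of those tested) were higher in pDC. Leaving out both libraries of 1 sort moved the count most, to 3585 without replicate 1, 3908 without replicate 2 and 8507 without replicate 3, and in each case the main calls that stayed called kept their direction.

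**Figure D3:**
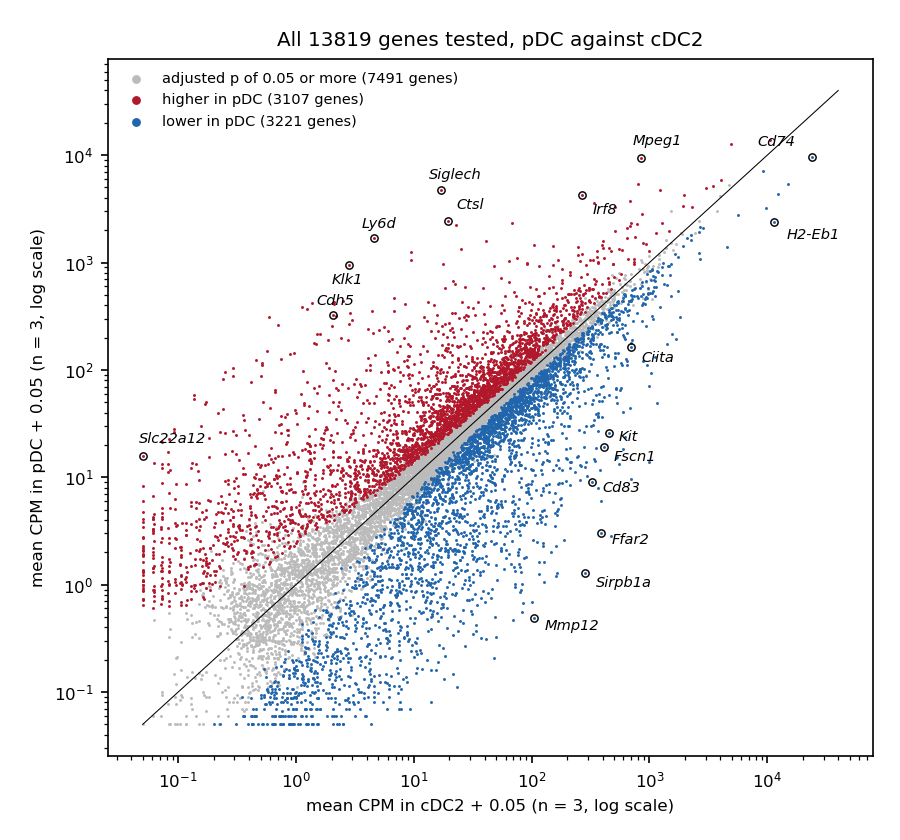
Mean level of each of the 13819 genes tested in cDC2 (x axis) and in pDC (y axis), in TMM-normalized CPM plus 0.05 on log scales (n = 3), with the line of equal levels. The 3107 genes called higher in pDC (red) and the 3221 called lower (blue) spread on both sides over the whole range of levels, and 17 genes named in the text are circled.

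By difference in CPM, the genes that gained most in pDC were Mpeg1, Psap, Siglech, Ctsb, Irf8, Ly6e, Grn and mt-Co1. Mpeg1, which encodes the pore-forming protein perforin-2, stood at 9647, 8643 and 9925 CPM in pDC and 738, 763 and 1024 CPM in cDC2 (log2 fold change 3.48, SE 0.14, adjusted p = 1.01e-07). Psap, Ctsb and Grn encode a precursor of lysosomal activators, the protease cathepsin B and progranulin, and each was higher in all 3 pairs (log2 fold changes 1.37, 2.76 and 3.40). The mitochondrial mt-Co1 differed little (log2 fold change 0.38, SE 0.11, adjusted p = 0.0145) and was not called without cDC2 replicate 3. The genes that lost most were Cd74, H2-Aa, H2-Eb1, Tmsb4x, H2-Ab1, Lcp1, Actb and Eef1a1, so that 4 of the 8 belong to MHC class II presentation and 3 to the actin cytoskeleton. Cd74, the invariant chain of MHC class II, stood at 10437, 9488 and 9161 CPM in pDC and 24996, 22862 and 23670.0 CPM in cDC2 (log2 fold change -1.30, SE 0.073, adjusted p = 5.66e-07). Eef1a1, a translation elongation factor, differed little (log2 fold change -0.38, SE 0.11, adjusted p = 0.0160) and was not called without cDC2 replicate 3.

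By fold, the leading genes were near absent from the other subset. Slc22a12, the gene of the urate transporter URAT1, stood at 16.3, 16.9 and 14.02 CPM in pDC, and no read was counted in cDC2, which makes it at least 131-fold higher against the floor of 3 counts per library. The ion channel gene Trpa1 was at least 49.9-fold higher on the same floor. Rai2 had 1488 counts in pDC and 2 in cDC2, a ratio of 840.1 after scaling, with an exact 95% counting interval of 232 to 6943. The other genes among the 8 largest folds were the noncoding Gm829, Lrrc15, Gcm2, Gm12253 and Ddn. Among the 8 leading genes lower in pDC was the atypical cadherin gene Fat2, at least 30.7-fold lower, and Cdhr3, of the cadherin family too, with 3 counts in pDC and 1094 in cDC2 (ratio 323, interval 110.2 to 1568). The others were the noncoding Gm26687, the calcium release channel Ryr3, the transporters Slc6a12 and Slc44a5, the coagulation factor gene F9 and Mmp12. Ryr3 stood at 0.212, 0.253 and 0 CPM in pDC and 51.2, 61.2 and 31.3 CPM in cDC2 (log2 fold change -8.10, SE 0.69, adjusted p = 8.79e-06), without overlap.

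Surface and identity genes of pDC were higher almost as a block, with 31 higher and 0 lower of 32 tested and a median log2 fold change of 5.95. Over all genes tested 22.5% were higher and the median was -0.01. The list holds genes known for pDC and was chosen with earlier results of these data known, so its count checks the labels and is no separate finding. Ly6d, a surface protein of early lymphoid cells, stood at 1773, 1546 and 1726 CPM in pDC and 7.65, 2.17 and 3.77 CPM in cDC2 (log2 fold change 8.52, SE 0.54, adjusted p = 1.27e-06). Ccr9, the receptor for the gut chemokine CCL25, stood at 1432, 1184 and 1165 CPM in pDC and 10.2, 7.67 and 10.2 CPM in cDC2 (log2 fold change 7.08, SE 0.17, adjusted p = 2.52e-08). Both genes reached at least 1165 CPM in each pDC library and at most 10.2 CPM in any cDC2 library. The list also held genes of very different known roles, such as Klk1 (a kallikrein protease, log2 fold change 8.45), Dntt (terminal transferase, 8.24), Cdh1 (E-cadherin, 7.50), Havcr1 (TIM-1, 8.41), Cox6a2 (a muscle-type subunit of cytochrome c oxidase, 8.29) and Pacsin1 (an endocytic adaptor, 7.67). Lag3, an inhibitory receptor for MHC class II, was higher by 3.71 on the log2 scale. The smallest difference called was that of Tspan13, at 705, 755 and 904 CPM in pDC and 560.5, 547 and 616 CPM in cDC2 (log2 fold change 0.46, SE 0.12, adjusted p = 0.0118). The 1 member not called was the potassium channel gene Kcnk12, at 0.969, 0.456 and 1.53 CPM in pDC and 0.733, 1.54 and 0 CPM in cDC2.

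Identity genes of cDC2 divided, with 5 higher and 19 lower of 28 tested (median -2.14). Dtx1, a Notch target, stood at 4.90, 2.84 and 0.589 CPM in pDC and 491, 478 and 446 CPM in cDC2 (log2 fold change -7.33, SE 0.58, adjusted p = 5.58e-06). Ffar2, a receptor for short-chain fatty acids, stood at 4.48, 0.659 and 3.77 CPM in pDC and 442, 392 and 325 CPM in cDC2 (log2 fold change -6.99, SE 0.52, adjusted p = 3.27e-06). The cDC2 libraries held at least 325 CPM of each gene, and no pDC library reached 5 CPM. Clec4a4, the gene of the cDC2 lectin DCIR2, Esam, an adhesion molecule, and Mmp12, the macrophage elastase, were lower in pDC, with log2 fold changes of -7.01, -5.85 and -7.72. Clec4a4 belongs to a family of similar genes, and how reads shared between its members were counted is not given in the sources used here. Csf1r, the receptor for M-CSF that is also on the macrophage list, stood at 70.4, 20.4 and 89.1 CPM in pDC and 401, 329 and 383 CPM in cDC2 (log2 fold change -2.63, SE 0.46, adjusted p = 0.00109), with its lowest pDC value in replicate 2, where the macrophage genes were lowest too. The part of macrophage RNA in this difference was not tested.

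Genes on the cDC2 list that went the other way were Cd4, Clec10a, Clec12a, Mgl2 and Cd209a. Cd4, the T cell coreceptor that many cDC2 of the spleen carry, stood at 1451, 1344 and 1311 CPM in pDC and 422, 385 and 391 CPM in cDC2 (log2 fold change 1.78, SE 0.13, adjusted p = 2.93e-06). Clec10a, a galactose-binding lectin, stood at 537, 544 and 667 CPM in pDC and 18.8, 13.5 and 22.7 CPM in cDC2 (log2 fold change 4.99, SE 0.35, adjusted p = 2.44e-06). All 3 pDC libraries lay above all 3 cDC2 libraries for both genes. Clec12a, an inhibitory lectin that senses dead cells, and Cd209a, a relative of DC-SIGN, were higher by log2 fold changes of 2.74 and 1.10. Cd7, a surface protein of T and NK cells, stood at 684, 688 and 784 CPM in pDC and 508, 491 and 573 CPM in cDC2 and passed the threshold with the replicate block (adjusted p = 0.00615) but not without it (adjusted p = 0.0582).

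Transcription factor genes differed in both directions. Of the factors listed for pDC, 21 of 29 were higher and 2 lower, the latter Cbfa2t3 and Pou2f2, of which Pou2f2 was not called without pDC replicate 1 or without cDC2 replicate 1 or 2. Tcf4, which encodes the E protein that pDC depend on, stood at 942, 980.4 and 861 CPM in pDC and 45.6, 51.99 and 45.02 CPM in cDC2 (log2 fold change 4.29, SE 0.15, adjusted p = 7.28e-08). Irf8, a factor of pDC and cDC1 development, stood at 4032, 4146 and 4553 CPM in pDC and 216, 283 and 309 CPM in cDC2 (log2 fold change 3.98, SE 0.15, adjusted p = 8.85e-08). By the fit Tcf4 was 19.5-fold and Irf8 15.8-fold higher in pDC, with each pDC library far above each cDC2 library. Runx2 (log2 fold change 4.47, SE 0.13, adjusted p = 4.46e-08), the ETS family gene Spib (log2 fold change 3.24, SE 0.18, adjusted p = 5e-07), Zeb2 (log2 fold change 1.58, SE 0.18, adjusted p = 6.7e-05) and Bcl11a (log2 fold change 1.33, SE 0.11, adjusted p = 6.86e-06) were higher as well. Irf7, which drives the induction of type I interferon genes, stood at 442, 506 and 621 CPM in pDC and 100.2, 111 and 172 CPM in cDC2 (log2 fold change 2.03, SE 0.25, adjusted p = 0.000101). Xbp1, a factor of secretory cells, was higher too (log2 fold change 2.21, SE 0.14, adjusted p = 1.06e-06). Ikzf1, the gene of Ikaros, differed little (log2 fold change 0.17, adjusted p = 0.109, or 0.0311 with the replicate block).

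Factors listed for conventional dendritic cells were lower in pDC for 20 of 34 and higher for 4 (Notch1, Id3, Bach2 and Rara). Id2, an inhibitor of E proteins, stood at 10.02, 4.82 and 10.3 CPM in pDC and 192, 203 and 243 CPM in cDC2 (log2 fold change -4.66, SE 0.29, adjusted p = 1.14e-06). Zbtb46, a factor restricted to conventional dendritic cells among leukocytes, stood at 8.90, 4.82 and 13.7 CPM in pDC and 94.8, 111 and 93.3 CPM in cDC2 (log2 fold change -3.45, SE 0.31, adjusted p = 1.14e-05). In both cases the pDC libraries reached at most 13.7 CPM and the cDC2 libraries at least 93.3 CPM. Spi1, which encodes PU.1, a close relative of Spi-B, stood at 111, 109 and 129.6 CPM in pDC and 606, 543 and 582 CPM in cDC2 (log2 fold change -2.31, SE 0.10, adjusted p = 1.57e-07), opposite to Spib. Batf3, Zfp366 (DC-SCRIPT), Relb and Nr4a3 were lower, with log2 fold changes of -5.40, -5.19, -3.21 and -4.66. Tbx21 (T-bet), which NK cells also express, stood at 0.878, 0.912 and 0.295 CPM in pDC and 36.8, 39.6 and 35.2 CPM in cDC2 (log2 fold change -5.68, SE 0.33, adjusted p = 6.74e-07). Ncr1 stood at 2.33, 6.51 and 10.4 CPM in the same cDC2 libraries, and the part of NK RNA in the difference of Tbx21 was not tested. Notch2, the receptor that cDC2 of the spleen require, differed less (log2 fold change -0.51, SE 0.12, adjusted p = 0.00564), and Notch1 went the other way, at 257, 281 and 199 CPM in pDC and 6.18, 7.32 and 12.8 CPM in cDC2 (log2 fold change 4.82, SE 0.33, adjusted p = 2.16e-06). Irf4, another cDC2 factor, stood at 52.2, 50.1 and 56.9 CPM in pDC and 67.6, 73.9 and 67.1 CPM in cDC2 and was not called (adjusted p = 0.0653, or 0.0395 with the replicate block).

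**Figure D4:**
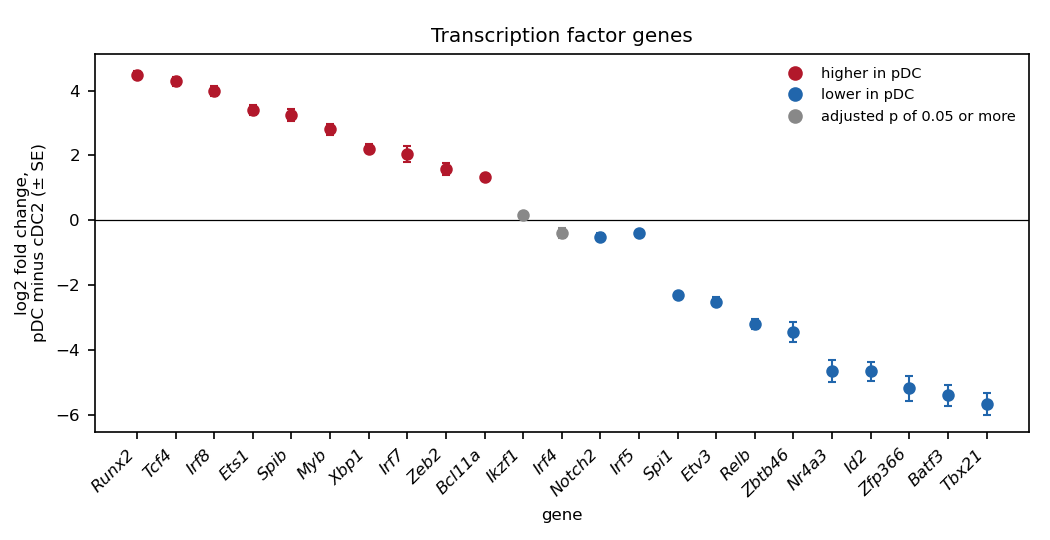
Log2 fold change of pDC minus cDC2 for 23 transcription factor genes, with the SE from the edgeR fit as bars. The 10 genes on the left, from Runx2 to Bcl11a, were called higher in pDC, Ikzf1 and Irf4 (grey) were not called, and the 11 genes on the right, from Notch2 to Tbx21, were called lower.

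Promoters of 4 marker genes and of the factor genes Spib and Zbtb46 are shown because these genes mark the subsets and because several factors that differed have known recognition letters. The 250 bases before the annotated start are from RefSeq on GRCm38.p6, written 5′ to 3′ on the strand of the gene, with matches to 5 motifs, on either strand, in capitals. The motifs are CACCTG and CAGCTG (E-box forms bound by E proteins), GAGGAAGT (a site of the PU.1 and Spi-B type), GAAANNGAA (the repeat in interferon-stimulated response elements) and GGAANNGAA (an ETS and IRF composite).
Siglech, chr7:55767934-55768183, plus strand: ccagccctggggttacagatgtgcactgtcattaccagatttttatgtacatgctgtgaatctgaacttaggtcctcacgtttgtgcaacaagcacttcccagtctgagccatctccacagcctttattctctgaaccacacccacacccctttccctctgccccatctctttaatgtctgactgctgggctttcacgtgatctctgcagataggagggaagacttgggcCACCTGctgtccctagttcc
Ccr9, chr9:123766961-123767210, plus strand: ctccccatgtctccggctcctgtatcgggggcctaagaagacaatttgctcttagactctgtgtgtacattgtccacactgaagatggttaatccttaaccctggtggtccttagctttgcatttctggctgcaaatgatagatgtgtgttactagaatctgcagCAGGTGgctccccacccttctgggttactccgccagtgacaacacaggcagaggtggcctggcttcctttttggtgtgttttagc
Bst2, chr8:71537473-71537722, minus strand: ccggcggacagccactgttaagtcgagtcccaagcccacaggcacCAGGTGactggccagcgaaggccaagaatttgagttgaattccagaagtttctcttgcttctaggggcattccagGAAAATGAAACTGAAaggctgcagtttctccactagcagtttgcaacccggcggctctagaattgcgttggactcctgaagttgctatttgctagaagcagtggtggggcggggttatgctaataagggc
Spib, chr7:44532072-44532321, minus strand: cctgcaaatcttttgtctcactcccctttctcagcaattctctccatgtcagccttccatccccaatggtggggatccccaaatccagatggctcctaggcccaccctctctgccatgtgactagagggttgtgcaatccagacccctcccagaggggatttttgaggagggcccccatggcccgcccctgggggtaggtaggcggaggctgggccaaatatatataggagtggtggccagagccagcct
Itgam, chr7:128062390-128062639, plus strand: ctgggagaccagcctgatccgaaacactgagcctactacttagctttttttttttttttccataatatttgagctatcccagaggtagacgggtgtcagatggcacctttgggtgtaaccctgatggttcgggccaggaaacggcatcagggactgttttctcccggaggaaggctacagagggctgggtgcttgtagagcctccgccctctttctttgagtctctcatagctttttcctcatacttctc
Zbtb46, chr2:181424389-181424638, minus strand: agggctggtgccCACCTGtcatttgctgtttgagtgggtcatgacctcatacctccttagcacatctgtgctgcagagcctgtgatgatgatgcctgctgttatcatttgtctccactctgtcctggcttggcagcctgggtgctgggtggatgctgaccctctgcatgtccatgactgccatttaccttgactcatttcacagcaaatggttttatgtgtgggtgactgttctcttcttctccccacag
Siglech held 1 CACCTG match, starting 20 bases before the start, and Ccr9 held 1 on the opposite strand (read as CAGGTG), starting 85 bases before it. Bst2, an interferon-stimulated gene, held 1 CACCTG match, also on the opposite strand, at 205 bases and 2 overlapping GAAANNGAA matches at 130 and 124 bases before the start. Spib, higher in pDC, and Itgam, lower in pDC, held no match to the 5 motifs in this window. Zbtb46, lower in pDC, held 1 CACCTG match, starting 238 bases before the annotated start. Whether that start is used in these cells was not measured. The Zbtb46 window ends in a run of pyrimidines and AG, the letters of an intron end, so it may not be promoter sequence. Spib and Itgam, of opposite direction, both lacked a match, so these 6 windows did not divide by the direction of the difference. Over 9381 genes tested that had a promoter in the table, CACCTG was found in 18.1%, in 21.98% of those called higher in pDC and in 18.6% of those called lower. Among the 383 genes higher by at least 3 on the log2 scale it was 27.4%, and among the 630 lower by as much 21.9%. The shares for GAAANNGAA were 7.82% of all, 7.56% of the higher and 9.81% of the lower genes, and those for GAGGAAGT were 3.37%, 3.27% and 4.73%. The shares in the same order were 13.9%, 15.4% and 14.8% for CAGCTG, and 7.48%, 7.19% and 8.17% for GGAANNGAA. Among the genes higher and lower by at least 3 on the log2 scale the shares were, in that order, 6.79% and 12.4% for GAAANNGAA, 4.70% and 5.24% for GAGGAAGT, 20.4% and 18.1% for CAGCTG, and 6.79% and 7.94% for GGAANNGAA. A match is a run of letters and not a measured site, and no binding was measured here.

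Endosomal sensing of nucleic acids did not move as a whole, with 12 higher and 11 lower of 35 tested, and the members divided by receptor. Tlr7, which senses single-stranded RNA, stood at 384, 382 and 563 CPM in pDC and 71.1, 70.3 and 105 CPM in cDC2 (log2 fold change 2.43, SE 0.28, adjusted p = 6.27e-05). Tlr9, which senses unmethylated CpG DNA, stood at 348, 264 and 248 CPM in pDC and 112, 101 and 134 CPM in cDC2 (log2 fold change 1.31, SE 0.16, adjusted p = 8.91e-05). The pDC libraries lay above the cDC2 libraries for both receptors. Unc93b1, the chaperone that carries these receptors to endosomes, and Pld4, an endolysosomal nuclease, were higher by log2 fold changes of 0.80 and 1.76. In the opposite direction, Tlr13, a receptor for bacterial ribosomal RNA, stood at 4.36, 1.52 and 8.66 CPM in pDC and 110.3, 117 and 142 CPM in cDC2 (log2 fold change -4.69, SE 0.47, adjusted p = 2.58e-05), and Tlr3, a receptor for double-stranded RNA, was lower with a log2 fold change of -4.01. Tlr3, also a cDC1 marker, stood at 21.9, 36.4 and 35.1 CPM in cDC2 and 288, 332 and 344 CPM in the cDC1 libraries. The part of cDC1 RNA in the difference of Tlr3 was not tested. Dnase1l3, a secreted nuclease that degrades DNA of dying cells, fell as well (log2 fold change -3.81, SE 0.21, adjusted p = 5.25e-07). Downstream of the receptors, Irf7 was higher, Irf5 slightly lower (log2 fold change -0.40, SE 0.093, adjusted p = 0.00569), and Myd88, the shared adaptor, stood at 131, 126 and 153 CPM in pDC and 165, 154 and 196 CPM in cDC2 (adjusted p = 0.0658, or 0.00138 when sorts were fitted as pairs, and past the threshold without pDC replicate 3 or cDC2 replicate 2).

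The other TLR, their co-receptors and adaptors gave 4 higher and 7 lower of 17 tested. This list holds Tlr11 and Tlr12, which encode endosomal receptors for profilin that also depend on UNC93B1, and without them there were 3 higher and 6 lower of 15. Tlr11 was lower in pDC (log2 fold change -4.08, SE 0.45, adjusted p = 5.35e-05), whereas Tlr12, its partner, was higher, at 208, 188 and 214 CPM in pDC and 19.6, 19.9 and 17.1 CPM in cDC2 (log2 fold change 3.43, SE 0.13, adjusted p = 8.85e-08). Tlr11, also a cDC1 marker, stood at 42.6, 57.4 and 62.8 CPM in cDC2 and 532, 534 and 547 CPM in the cDC1 libraries. The part of cDC1 RNA in the difference of Tlr11 was not tested. Among the surface receptors Tlr1, a receptor for lipopeptides, was lower (log2 fold change -5.78, SE 0.33, adjusted p = 5.72e-07). Cd180, a TLR-like receptor of B cells, was higher as well (log2 fold change 2.02, SE 0.12, adjusted p = 8.55e-07). Cytosolic sensors gave 6 higher and 11 lower of 24 tested. The RNA sensors Ddx58 (RIG-I) and Ifih1 (MDA5) were lower, Ddx58 at 5.69, 6.34 and 8.78 CPM in pDC and 80.4, 91.9 and 109.8 CPM in cDC2 (log2 fold change -3.77, SE 0.29, adjusted p = 4.54e-06) and Ifih1 with a log2 fold change of -1.58. Aim2, a sensor of cytosolic DNA that assembles inflammasomes, was lower as well (log2 fold change -0.63, SE 0.15, adjusted p = 0.00772). No pDC library reached the lowest cDC2 library for Ddx58.

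Antigen presentation on MHC class II was lower in pDC for 14 of 20 genes tested and higher for 2. Ciita, the transactivator of these genes, stood at 175, 171 and 141 CPM in pDC and 704, 795 and 603 CPM in cDC2 (log2 fold change -2.11, SE 0.20, adjusted p = 1.86e-05). The chains H2-Aa, H2-Ab1 and H2-Eb1 were lower, with log2 fold changes of -1.48, -1.62 and -2.28, and H2-Eb2 with one of -5.09. H2-Ob, a chain of the regulator of peptide loading, fell (log2 fold change -3.43, SE 0.18, adjusted p = 3.31e-07). Cd83, which keeps MHC class II and CD86 at the surface, stood at 10.7, 4.11 and 12.3 CPM in pDC and 357, 303 and 317 CPM in cDC2 (log2 fold change -5.17, SE 0.35, adjusted p = 1.82e-06). The cDC2 libraries thus held between 303 and 357 CPM of Cd83 and the pDC libraries at most 12.3 CPM. In the opposite direction Ctsl, the lysosomal protease cathepsin L, stood at 2456, 2389 and 2399 CPM in pDC and 23.8, 13.1 and 20.9 CPM in cDC2 (log2 fold change 6.97, SE 0.30, adjusted p = 1.57e-07), while Ctss, the cathepsin of professional antigen-presenting cells, stood at 1858, 1708 and 1959 CPM in pDC and 1943, 1745 and 1947 CPM in cDC2 (adjusted p = 0.838).

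The class I side differed, with 10 higher and 1 lower of 20 tested. H2-K1, a classical class I heavy chain, stood at 4938, 5031 and 4861 CPM in pDC and 3167, 2712 and 3133 CPM in cDC2 (log2 fold change 0.72, SE 0.099, adjusted p = 0.000239), and H2-Q7, a nonclassical chain, at 917, 901 and 804 CPM in pDC and 203, 166 and 179 CPM in cDC2 (log2 fold change 2.26, SE 0.13, adjusted p = 5.86e-07). Class I genes are similar in sequence, so reads shared between them make each value uncertain. Cd1d1, which presents lipids to NKT cells, was the 1 member lower in pDC (log2 fold change -1.48, SE 0.14, adjusted p = 1.97e-05). B2m, the shared light chain, stood at 5003, 4394 and 6582 CPM in pDC and 4473, 3855 and 5903 CPM in cDC2 (adjusted p = 0.573, or 0.00777 with the replicate block).

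Ligands for T cell costimulation were lower in pDC for 9 of 20 and higher for 4 (Cd276, Pvr, Lgals9 and Tnfrsf14). The share higher (20%) was near the 22.5% over all genes, and the share lower was 45%, against 23.3%. Cd86 stood at 15.7, 10.5 and 13.8 CPM in pDC and 119.8, 122 and 122 CPM in cDC2 (log2 fold change -3.18, SE 0.14, adjusted p = 1.66e-07), and Cd80 and Cd40 were lower too (log2 fold changes -4.76 and -3.44). Cd86 and Cd80 encode the ligands of CD28, and the levels of each varied little among the cDC2 libraries. The inhibitory ligands Cd274 (PD-L1) and Pdcd1lg2 (PD-L2) were lower too (log2 fold change -2.72, SE 0.15, adjusted p = 4.47e-07, and log2 fold change -5.61, SE 0.40, adjusted p = 2.72e-06), as was Icosl (log2 fold change -2.49, SE 0.12, adjusted p = 2.44e-07). Cd276 (B7-H3) stood at 12.9, 13.7 and 15.4 CPM in pDC and 1.85, 2.94 and 3.19 CPM in cDC2 (log2 fold change 2.40, SE 0.35, adjusted p = 0.000326). Cd28, usually a receptor of T cells, was itself at 57.02, 52.7 and 67.5 CPM in pDC and 0.765, 0.875 and 1.54 CPM in cDC2 (log2 fold change 5.84, SE 0.55, adjusted p = 1.81e-05), with Cd8b1 at 411, 403 and 415 CPM in pDC and 2.04, 1.16 and 2.98 CPM in cDC2 (log2 fold change 7.67, SE 0.30, adjusted p = 1.03e-07). The T cell gene Cd3d reached at most 0.608 CPM in any pDC library.

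Myeloid C-type lectins and pattern receptors were unequally shared, with 10 higher and 15 lower of 29 tested. Clec7a (dectin-1), a receptor for fungal glucan, stood at 8.60, 3.19 and 9.66 CPM in pDC and 167, 138 and 163 CPM in cDC2 (log2 fold change -4.45, SE 0.36, adjusted p = 5.66e-06). Cd209d, a mouse relative of DC-SIGN, was higher in pDC (log2 fold change 6.14, SE 0.28, adjusted p = 1.91e-07), and so was Clec9a, a receptor for actin of dead cells (log2 fold change 2.33, SE 0.13, adjusted p = 6.32e-07). Siglecs, CD300 molecules and paired receptors gave 9 higher and 16 lower of 33 tested. Sirpb1a, an activating relative of Sirpa, stood at 3.03, 0.456 and 0.236 CPM in pDC and 289.7, 269 and 298 CPM in cDC2 (log2 fold change -7.65, SE 0.71, adjusted p = 1.67e-05), and reads may be shared with its neighbours Sirpb1b and Sirpb1c, which were lower as well. Cd22, an inhibitory Siglec best known from B cells, was lower in pDC (log2 fold change -4.41, SE 0.24, adjusted p = 5e-07). Cd300c, at 223, 231 and 266 CPM in pDC and 5.04, 4.31 and 2.71 CPM in cDC2, went up (log2 fold change 5.88, SE 0.29, adjusted p = 2.44e-07), together with the inhibitory collagen receptor Lair1 (log2 fold change 2.67, SE 0.11, adjusted p = 1.56e-07) and the adaptor Tyrobp (DAP12), through which Siglec-H signals (log2 fold change 1.55, SE 0.11, adjusted p = 2.74e-06). Fc receptors gave 2 higher and 4 lower of 12 tested, with Fcrla, an intracellular relative in B cells, at 249, 217 and 335 CPM in pDC and 3.16, 2.87 and 2.29 CPM in cDC2 (log2 fold change 6.57, SE 0.23, adjusted p = 7.28e-08) and Fcer1g, the shared signalling chain, at 424, 348 and 509 CPM in pDC and 383, 329 and 433 CPM in cDC2 (adjusted p = 0.626).

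Killer lectin-like receptors, most of them known from NK cells, were lower in pDC for 8 of 22 (13 with the replicate block) and higher for 1, Klra17, at 450.1, 425 and 409 CPM in pDC and 14.5, 13.2 and 11.96 CPM in cDC2 (log2 fold change 5.01, SE 0.17, adjusted p = 7.28e-08). Klri1 stood at 1.998, 0.862 and 0.589 CPM in pDC and 138, 144 and 199 CPM in cDC2 (log2 fold change -7.004, SE 0.37, adjusted p = 3.97e-07), and Klrk1 (NKG2D), which is on the NK list, at 17.4, 15.3 and 15.7 CPM in pDC and 65.2, 74.2 and 81.6 CPM in cDC2 (log2 fold change -2.19, SE 0.12, adjusted p = 5.12e-07). Klrb1b stood at 0.696, 0.456 and 0.530 CPM in pDC and 6.66, 9.45 and 21.9 CPM in cDC2 (log2 fold change -4.45, SE 0.55, adjusted p = 0.000108), highest in cDC2 replicate 3 like Ncr1. The NK gene Klrb1c, at 3.03, 1.62 and 4.30 CPM in pDC and 3.57, 8.997 and 16.5 CPM in cDC2, was not called (adjusted p = 0.0658, or 0.01399 in the paired fit, and past the threshold without cDC2 replicate 1), and Gzma, the gene of granzyme A, stood at 9.53, 4.87 and 25.3 CPM in pDC and 10.04, 10.6 and 40.7 CPM in cDC2 (adjusted p = 0.527, or 0.0305 with the replicate block). The part of NK RNA in these differences was not tested.

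Chemoattractant receptors gave 11 higher and 12 lower of 36 tested (30.6% and 33.3%, against 22.5% and 23.3% over all genes). Next to Ccr9, pDC held more Cxcr3, a receptor for inflammatory chemokines, at 149.6, 132 and 119 CPM in pDC and 6.88, 8.96 and 10.6 CPM in cDC2 (log2 fold change 3.93, SE 0.22, adjusted p = 5e-07). P2ry14, a receptor for UDP-glucose, and S1pr4, a sphingosine-1-phosphate receptor, were higher by log2 fold changes of 4.18 and 3.77. Ccr7, which guides dendritic cells to T cell zones, stood at 12.2, 8.26 and 14.6 CPM in pDC and 169, 118 and 169 CPM in cDC2 (log2 fold change -3.71, SE 0.29, adjusted p = 4.63e-06), and Ccr6 and Ccrl2 were lower as well (-2.89 and -4.61 on the log2 scale). Xcr1, a marker of cDC1, stood at 8.90, 1.37 and 3.65 CPM in pDC and 33.5, 64.9 and 50.5 CPM in cDC2 (log2 fold change -3.36, SE 0.51, adjusted p = 0.000463), against 929, 933 and 947 CPM in the cDC1 libraries of the series. The part of cDC1 RNA in the difference of Xcr1 was not tested.

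Cytokine genes were called in 1 direction, with 0 higher and 21 lower of 28 tested and a median log2 fold change of -2.42. Il1b, the gene of interleukin-1β, stood at 2.15, 1.06 and 4.06 CPM in pDC and 119, 113 and 101 CPM in cDC2 (log2 fold change -5.54, SE 0.37, adjusted p = 1.67e-06). Ccl22, a chemokine for regulatory T cells, stood at 2.66, 0.710 and 0.530 CPM in pDC and 48.7, 25.6 and 41.4 CPM in cDC2 (log2 fold change -4.74, SE 0.52, adjusted p = 5.08e-05), and Cxcl16 at 4.42, 0.760 and 7.48 CPM in pDC and 122, 86.4 and 101 CPM in cDC2 (log2 fold change -4.62, SE 0.55, adjusted p = 8.99e-05). No pDC library came near a cDC2 library for these 3 genes. Il15, Il1rn, Cxcl9 and Il12b were also lower, with log2 fold changes of -4.11, -4.83, -3.31 and -3.57. Ccl5, which NK cells also make and which is on the NK list, stood at 12.4, 6.94 and 24.7 CPM in pDC and 367, 318 and 321 CPM in cDC2 (log2 fold change -4.52, SE 0.49, adjusted p = 4.5e-05). The part of NK RNA in the difference of Ccl5 was not tested. Tgfb1 stood at 399, 429 and 465 CPM in pDC and 387, 369 and 457 CPM in cDC2 (adjusted p = 0.535). Type I interferon genes were near the floor in these unstimulated cells, with Ifna1, Ifna2 and Ifnb1 not tested and at most 0.412 CPM in any of the 6 libraries, which at this depth does not show whether the subsets differ.

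Receptors for growth factors and cytokines gave 15 higher and 16 lower of 38 tested. Flt3, the receptor that drives dendritic cell development, was close to equal, at 626, 632 and 632 CPM in pDC and 635, 655 and 586 CPM in cDC2 (log2 fold change 0.01, SE 0.085). Il7r, the receptor for a lymphoid growth factor, stood at 249, 222 and 222 CPM in pDC and 12.2, 12.9 and 16.6 CPM in cDC2 (log2 fold change 4.06, SE 0.16, adjusted p = 9.7e-08), and Lifr at 169, 221 and 164 CPM in pDC and 5.86, 7.28 and 5.16 CPM in cDC2 (log2 fold change 4.91, SE 0.19, adjusted p = 1.01e-07). Kit, the receptor for stem cell factor, stood at 29.6, 20.2 and 28.2 CPM in pDC and 454, 444 and 448 CPM in cDC2 (log2 fold change -4.11, SE 0.15, adjusted p = 8.85e-08). Il7r and Lifr were thus high in each pDC library, and Kit in each cDC2 library. Csf2rb2, the mouse IL-3 receptor β chain, was higher in pDC (log2 fold change 3.42, SE 0.15, adjusted p = 1.56e-07), Il3ra also (log2 fold change 1.13, SE 0.14, adjusted p = 0.000123), and Csf2ra, the α chain of the GM-CSF receptor, was lower (log2 fold change -1.89, SE 0.14, adjusted p = 2.77e-06). The NK gene Il2rb, at 3.995, 2.18 and 5.30 CPM in pDC and 4.75, 19.99 and 35.9 CPM in cDC2, overlapped between the subsets (log2 fold change -2.40, SE 0.66, adjusted p = 0.0135) and was not called without cDC2 replicate 3.

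Receptors for type I interferon were higher in pDC and the ligand-binding receptor for interferon-γ was lower. Ifnar1 stood at 291, 317 and 278 CPM in pDC and 95.6, 101 and 85.7 CPM in cDC2 (log2 fold change 1.65, SE 0.12, adjusted p = 2.33e-06) and Ifnar2 was higher too (log2 fold change 1.53, SE 0.10, adjusted p = 1.48e-06). Ifngr1 stood at 76.7, 58.1 and 67.8 CPM in pDC and 529, 532 and 497 CPM in cDC2 (log2 fold change -2.94, SE 0.13, adjusted p = 1.57e-07), with Jak2, the kinase of that receptor, lower as well (log2 fold change -1.55, SE 0.12, adjusted p = 5.23e-06). Each difference held without overlap between the libraries. The list of interferon receptors and JAK-STAT genes gave 7 higher and 7 lower of 27 tested, with 4 instead of 7 higher without cDC2 replicate 1. Both shares (25.9%) were near those over all genes (22.5% higher and 23.3% lower). Interferon-stimulated genes were more often lower than higher, with 14 higher and 29 lower of 62 tested. The share higher (22.6%) was near that over all genes, and the share lower was 46.8%. Ifitm3, a block to virus entry, stood at 54.2, 30.5 and 70.05 CPM in pDC and 433, 358 and 398 CPM in cDC2 (log2 fold change -2.94, SE 0.26, adjusted p = 1.25e-05), and Ifit3, Oas2 and Rtp4 were lower, with log2 fold changes of -3.41, -4.79 and -4.40. The 14 higher genes included Bst2, Ly6a, Irf7 and Ifi44, the last at 55.8, 61.7 and 82.2 CPM in pDC and 3.57, 4.31 and 7.33 CPM in cDC2 (log2 fold change 3.73, SE 0.28, adjusted p = 3.97e-06). Isg15, at 21.3, 23.5 and 39.8 CPM in pDC and 41.5, 35.2 and 63.1 CPM in cDC2, was not called (adjusted p = 0.0968, or 0.000394 when sorts were paired, and past the threshold without pDC replicate 3).

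Subunits and regulators of NF-κB were lower in pDC for 16 of 27 and higher for 1. Relb stood at 55.7, 53.5 and 58.4 CPM in pDC and 572, 489 and 492 CPM in cDC2 (log2 fold change -3.21, SE 0.15, adjusted p = 2.1e-07), and Traf1, an NF-κB target and adaptor, at 42.01, 35.5 and 37.6 CPM in pDC and 379, 331 and 341 CPM in cDC2 (log2 fold change -3.19, SE 0.15, adjusted p = 1.91e-07). Nfkb1 was lower with a log2 fold change of -1.16 and Rela stood at 104, 104 and 115 CPM in pDC and 119, 105 and 122 CPM in cDC2 (adjusted p = 0.541). In the BCL-2 family, 11 of 20 genes were lower and 2 higher. Bcl2a1b, a survival gene and NF-κB target, stood at 2.91, 1.17 and 0.648 CPM in pDC and 150.3, 112 and 117 CPM in cDC2 (log2 fold change -6.22, SE 0.42, adjusted p = 1.91e-06), and its near-identical copies Bcl2a1a and Bcl2a1d fell with it, so that reads may be split between them. Pmaip1 (NOXA), which opposes survival, stood at 32.2, 24.3 and 33.8 CPM in pDC and 334, 305 and 324 CPM in cDC2 (log2 fold change -3.42, SE 0.15, adjusted p = 1.6e-07). Genes with opposite roles in survival were thus both lower in all 3 pDC libraries. Caspase and lytic death genes gave 3 higher and 19 lower of 32 tested, with the inflammasome genes Nlrp3 (log2 fold change -2.30, SE 0.18, adjusted p = 5.67e-06), Nlrc4 (log2 fold change -3.84, SE 0.73, adjusted p = 0.00187) and Casp1 (log2 fold change -1.04, SE 0.12, adjusted p = 7.08e-05) lower and the adaptor Pycard (ASC) slightly higher (log2 fold change 0.50, SE 0.11, adjusted p = 0.00364).

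Genes for entry into the endoplasmic reticulum (ER) and protein folding rose together, though by small amounts, with 55 higher and 1 lower of 65 tested and a median log2 fold change of 0.90. Hsp90b1, the chaperone gp96 that folds TLR, stood at 2062, 2336 and 1535 CPM in pDC and 531, 591 and 413 CPM in cDC2 (log2 fold change 1.95, SE 0.22, adjusted p = 6.17e-05). Sec61a1, the channel through which proteins enter the ER, rose (log2 fold change 1.31, SE 0.15, adjusted p = 6.38e-05), as did the oxidoreductase Txndc5, at 569.7, 590.4 and 611 CPM in pDC and 94.5, 89.3 and 105 CPM in cDC2 (log2 fold change 2.62, SE 0.12, adjusted p = 1.95e-07), and the chaperone Hspa5 (BiP, log2 fold change 0.69, SE 0.09, adjusted p = 0.000160). The 1 member that fell was Sdf2l1 (log2 fold change -0.64, SE 0.16, adjusted p = 0.00930). Among genes of the unfolded protein response and ER exit, 34 of 52 were higher and 3 lower. Sec24d, a coat protein of vesicles that leave the ER, stood at 183, 194 and 214 CPM in pDC and 13.2, 13.4 and 18.9 CPM in cDC2 (log2 fold change 3.70, SE 0.18, adjusted p = 2.3e-07), and Creb3l2, a membrane-bound factor of secretory cells, was higher by 3.33 on the log2 scale. Ern1, which encodes the sensor IRE1α that splices Xbp1, was higher (log2 fold change 1.69, SE 0.14, adjusted p = 8.29e-06).

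Beside these counts stands the immunoglobulin RNA of the pDC libraries, since plasma cells are rich in the same secretory genes and carry CD317. Igha, the constant region of IgA, stood at 729, 1580.1 and 611 CPM in pDC and 21.3, 22.1 and 9.89 CPM in cDC2 (log2 fold change 5.77, SE 0.45, adjusted p = 4.98e-06), and Ighm at 2724, 4164 and 3050.5 CPM in pDC and 478, 551 and 503 CPM in cDC2 (log2 fold change 2.70, SE 0.16, adjusted p = 7.08e-07). Variable segments summed to 989, 1946 and 977 CPM in pDC and 89.9, 107 and 62.3 CPM in cDC2, and 105 of 131 were called higher. Single variable segments differed widely between the pDC libraries, as for Ighv6-3, at 1.03, 36.6 and 7.07 CPM, and Igkv10-94, at 9.99, 10.7 and 73.9 CPM. Over the 31 variable segments with at least 10 CPM in pDC, the highest library was a median of 3.94 times the lowest, against 1.23 times for the other 2420 genes higher in pDC at that level. Of the plasma cell genes, Sdc1 (CD138), at 49.5, 47.6 and 44.1 CPM in pDC and 0.701, 0.7002 and 1.97 CPM in cDC2 (log2 fold change 5.46, SE 0.38, adjusted p = 2.19e-06), and Mzb1, a cochaperone of B cells and pDC, at 147, 144 and 228 CPM in pDC and 1.98, 1.47 and 0.850 CPM in cDC2 (log2 fold change 6.87, SE 0.38, adjusted p = 5.42e-07), were higher. Igj, the joining chain of secreted IgA and IgM, stood at 215, 454 and 345 CPM in pDC and 19.03, 27.8 and 19.6 CPM in cDC2 (log2 fold change 3.93, SE 0.28, adjusted p = 2.81e-06). Igj, Xbp1, Fkbp11 and Tnfrsf17 were highest in pDC replicate 2, as was the immunoglobulin sum, and Sdc1 and Mzb1 were not. Xbp1 differed little among the pDC libraries (333, 373 and 357 CPM), and Fkbp11 was low (0.848, 1.42 and 0.707 CPM). Of the 11 plasma cell genes tested 9 were higher and 1 lower, and the 3 defining ones (Sdc1, Igj and Tnfrsf17) summed to 265, 503 and 389 CPM in pDC and 19.8, 28.7 and 21.5 CPM in cDC2. Prdm1 (Blimp-1), a factor of plasma cells, was the 1 lower gene, at 0.696, 0.608 and 0.236 CPM in pDC and 6.76, 6.02 and 6.70 CPM in cDC2 (log2 fold change -3.61, SE 0.45, adjusted p = 0.000124), and Tnfrsf17 (BCMA) reached at most 1.17 CPM in any pDC library and was not tested. The secretory genes named above as higher were so in each of the 3 sorts, and the part of plasma cell RNA in their differences was not tested.

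Lymphoid and B-lineage genes gave 16 higher and 3 lower of 27 tested, with 6 instead of 3 lower without cDC2 replicate 1 or with the replicate block, and the immunoglobulin genes Ighm, Igkc and Iglc2 are among those higher. Blnk, an adaptor of B cell receptor signalling, stood at 289.7, 311 and 264 CPM in pDC and 3.25, 2.35 and 3.30 CPM in cDC2 (log2 fold change 6.61, SE 0.20, adjusted p = 5.08e-08). Dntt stood at 370.1, 351 and 375 CPM in pDC and 2.10, 0.245 and 1.22 CPM in cDC2 (log2 fold change 8.24, SE 0.58, adjusted p = 2.32e-06), and Rag1, the recombinase that works beside it, at 2.54, 2.84 and 1.94 CPM in pDC and 0.0637, 0 and 0 CPM in cDC2 (173 counts against 2, ratio 97.7, exact 95% counting interval 26.6 to 813). Blnk and Dntt were even over the 3 pDC libraries. Of the B cell markers 6 were higher and 7 lower of 15 tested, or 4 and 4 without sort 2. Beside the 3 immunoglobulin genes, Cd79b, a signalling chain of the B cell receptor, was higher, at 81.3, 73.4 and 97.8 CPM in pDC and 34.7, 32.5 and 41.1 CPM in cDC2 (log2 fold change 1.22, SE 0.17, adjusted p = 0.000208), as were Tnfrsf13c (the BAFF receptor) and Faim3 (the IgM receptor), with log2 fold changes of 1.001 and 3.43, neither called without sort 1 or without sort 2. Cd79a, the partner chain, stood at 2.54, 4.11 and 0.412 CPM in pDC and 0.510, 0.630 and 0 CPM in cDC2, highest in pDC replicate 2, and was not called (adjusted p = 0.0643, or 0.0238 in the paired fit, and past the threshold without pDC replicate 3). The B cell factors Pax5 and Ebf1 were not tested and reached at most 0.456 CPM in the 6 libraries. Bank1, a B cell adaptor, was lower in pDC (log2 fold change -3.84, SE 0.56, adjusted p = 0.000341), and Ms4a1 (CD20) stood at 0.848, 1.06 and 1.47 CPM in pDC and 28.7, 26.8 and 32.2 CPM in cDC2 (log2 fold change -4.73, SE 0.20, adjusted p = 1.56e-07). Gimap6 and Gimap1, GTPases of lymphocytes, were higher (log2 fold change 3.86, SE 0.27, adjusted p = 2.4e-06, and log2 fold change 4.67, SE 0.26, adjusted p = 4.76e-07).

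Genes of the actin cytoskeleton were lower in pDC for 46 of 61 and higher for 5 (median log2 fold change -0.75). Fscn1 (fascin), which bundles actin in dendrites, stood at 23.3, 11.3 and 23.1 CPM in pDC and 473, 307 and 445 CPM in cDC2 (log2 fold change -4.41, SE 0.35, adjusted p = 5.53e-06). Actr3, a subunit of the actin-nucleating Arp2/3 complex, and Cotl1, an actin-binding protein, were lower (log2 fold change -1.66, SE 0.19, adjusted p = 6.38e-05, and log2 fold change -3.45, SE 0.20, adjusted p = 6.85e-07), and so was Actb, used at times as a reference gene (log2 fold change -1.03, SE 0.066, adjusted p = 1.3e-06). Capg, which caps actin filaments, went the other way, at 178, 195 and 207 CPM in pDC and 8.70, 4.62 and 6.27 CPM in cDC2 (log2 fold change 4.88, SE 0.37, adjusted p = 3.59e-06), with the GTPase gene Rac2 (log2 fold change 1.38, SE 0.15, adjusted p = 3.91e-05). For Capg all pDC libraries lay above 170 CPM and all cDC2 libraries below 9 CPM. Integrin genes gave 3 higher and 13 lower of 20 tested, with Itgal (CD11a) higher (log2 fold change 1.48, SE 0.084, adjusted p = 6.08e-07) and its partner Itgb2 (CD18) lower (log2 fold change -0.97, SE 0.083, adjusted p = 9.22e-06).

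Lysosomal genes were more often higher than lower, with 31 higher and 13 lower of 70 tested. Ctsb stood at 5481, 5067 and 5624 CPM in pDC and 865, 669.9 and 849 CPM in cDC2 (log2 fold change 2.76, SE 0.12, adjusted p = 1.57e-07), and Npc1, which exports cholesterol from lysosomes, rose (log2 fold change 1.96, SE 0.089, adjusted p = 1.78e-07). The lysozyme genes went the other way, Lyz2 at 176, 48.9 and 302 CPM in pDC and 1675, 1103 and 1421 CPM in cDC2 (log2 fold change -2.997, SE 0.53, adjusted p = 0.00117) and Lyz1 at 1.33, 0.203 and 0 CPM in pDC and 101, 73.2 and 73.3 CPM in cDC2 (log2 fold change -7.03, SE 0.64, adjusted p = 1.32e-05). The pDC value of Lyz2 was lowest in replicate 2, as were the macrophage and neutrophil sums, and their part in it was not tested. Cholesterol synthesis and its control gave 24 higher and 2 lower of 31 tested (median log2 fold change 1.15). Sqle, the squalene epoxidase, stood at 104, 105 and 128 CPM in pDC and 26.6, 19.3 and 27.9 CPM in cDC2 (log2 fold change 2.19, SE 0.16, adjusted p = 3.47e-06). Insig1, which holds back the pathway when sterols are plentiful, was higher as well (2.48 on the log2 scale). Nr1h3 (LXRα) and its target Abcg1, which exports cholesterol, were lower (log2 fold change -2.10, SE 0.49, adjusted p = 0.00609, and log2 fold change -0.99, SE 0.16, adjusted p = 0.000818). The master factor Srebf2 stood at 503, 524 and 578 CPM in pDC and 509, 479 and 523 CPM in cDC2 (adjusted p = 0.445).

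Other housekeeping programs differed less. Oxidative phosphorylation gave 9 higher and 5 lower of 77 tested, under the share of all genes, although 8 were lower without pDC replicate 3 and 16 were higher and 15 lower with the replicate block, and Cox6a2, at 439, 412 and 409 CPM in pDC and 1.94, 0.840 and 1.17 CPM in cDC2, stood apart (log2 fold change 8.29, SE 0.32, adjusted p = 9.77e-08). The mitochondrial ribosome (5 higher and 7 lower of 72 tested) and the proteasome (3 higher and 7 lower of 42 tested) were called at shares under those of all genes too. Their counts lower fell to 4 and 2 without pDC replicate 2 or without cDC2 replicate 1, that of the proteasome to 4 without cDC2 replicate 3, and the replicate block gave 9 higher and 11 lower for the mitochondrial ribosome and 13 lower for the proteasome. Cytosolic ribosomal proteins were lower for 28 of 87, or 18 without cDC2 replicate 1 and 47 with the replicate block, and higher for 3, but these genes have many processed copies, and reads shared with the copies make their counts uncertain. Glycolysis gave 5 higher and 10 lower of 25 tested, with Ldhb at 97.4, 98.9 and 92.3 CPM in pDC and 5.16, 5.18 and 5.42 CPM in cDC2 (log2 fold change 4.19, SE 0.17, adjusted p = 1.13e-07) and Pfkfb3, which speeds glycolysis, at 31.8, 23.7 and 34.99 CPM in pDC and 226, 199 and 189 CPM in cDC2 (log2 fold change -2.76, SE 0.18, adjusted p = 1.56e-06). Solute carriers gave 59 higher and 49 lower of 195 tested (30.3% and 25.1%, against 22.5% and 23.3% over all genes). Slc41a2, a magnesium transporter, stood at 198, 202 and 193 CPM in pDC and 2.49, 2.14 and 2.50 CPM in cDC2 (log2 fold change 6.38, SE 0.16, adjusted p = 2.52e-08), and Slc12a2, a chloride cotransporter, at 7.51, 4.36 and 4.36 CPM in pDC and 166, 197 and 167 CPM in cDC2 (log2 fold change -5.01, SE 0.22, adjusted p = 1.69e-07).

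Cell cycle and DNA replication genes were lower in pDC for 45 of 49 and higher for 1, Cdk6, a call that was lost with any 1 of 5 libraries left out (all but pDC replicate 3). The median log2 fold change of the list was -3.17. Top2a, which untangles DNA in dividing cells, stood at 16.3, 10.7 and 12.1 CPM in pDC and 247, 282 and 235 CPM in cDC2 (log2 fold change -4.28, SE 0.25, adjusted p = 6.82e-07), and Mki67 (Ki-67) at 10.99, 12.3 and 2.42 CPM in pDC and 123, 223 and 71.9 CPM in cDC2 (log2 fold change -4.01, SE 0.77, adjusted p = 0.00189). Top2a was even among the cDC2 libraries, whereas Mki67 was lowest in replicate 3 of both subsets. Mcm5, part of the replicative helicase, and E2f2, a factor for entry into S phase, fell too (log2 fold changes -3.07 and -5.17). Long genes tended to be low in replicate 3. Over 1462 genes with at least 8 kb of exon sequence and at least 10 CPM in both subsets the median log2 ratio of replicate 3 to the mean of replicates 1 and 2 was -0.22 in pDC and -0.14 in cDC2, against 0.10 and 0.03 over 1139 genes under 2 kb. The part of gene length in the values of Mki67 was not tested. The median difference between pDC and cDC2 was 0.03 over the long and -0.05 over the short genes. Early response and heat-shock genes, which are known to rise during cell isolation, gave 1 higher and 10 lower of 23 tested, with 17 lower without replicate 3 and 16 with the replicate block, among them Nr4a1, at 7.90, 6.94 and 6.95 CPM in pDC and 129, 140.4 and 147 CPM in cDC2 (log2 fold change -4.25, SE 0.22, adjusted p = 3.38e-07), and Hspa1a, at 34.1, 64.7 and 74.99 CPM in pDC and 328, 500.3 and 544 CPM in cDC2 (log2 fold change -2.98, SE 0.32, adjusted p = 4.65e-05), which shares reads with its near copy Hspa1b. Fos stood at 409.9, 344 and 1208 CPM in pDC and 728, 648 and 1429 CPM in cDC2 and was not called (adjusted p = 0.519, or 0.0109 with the replicate block).

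**Figure D5:**
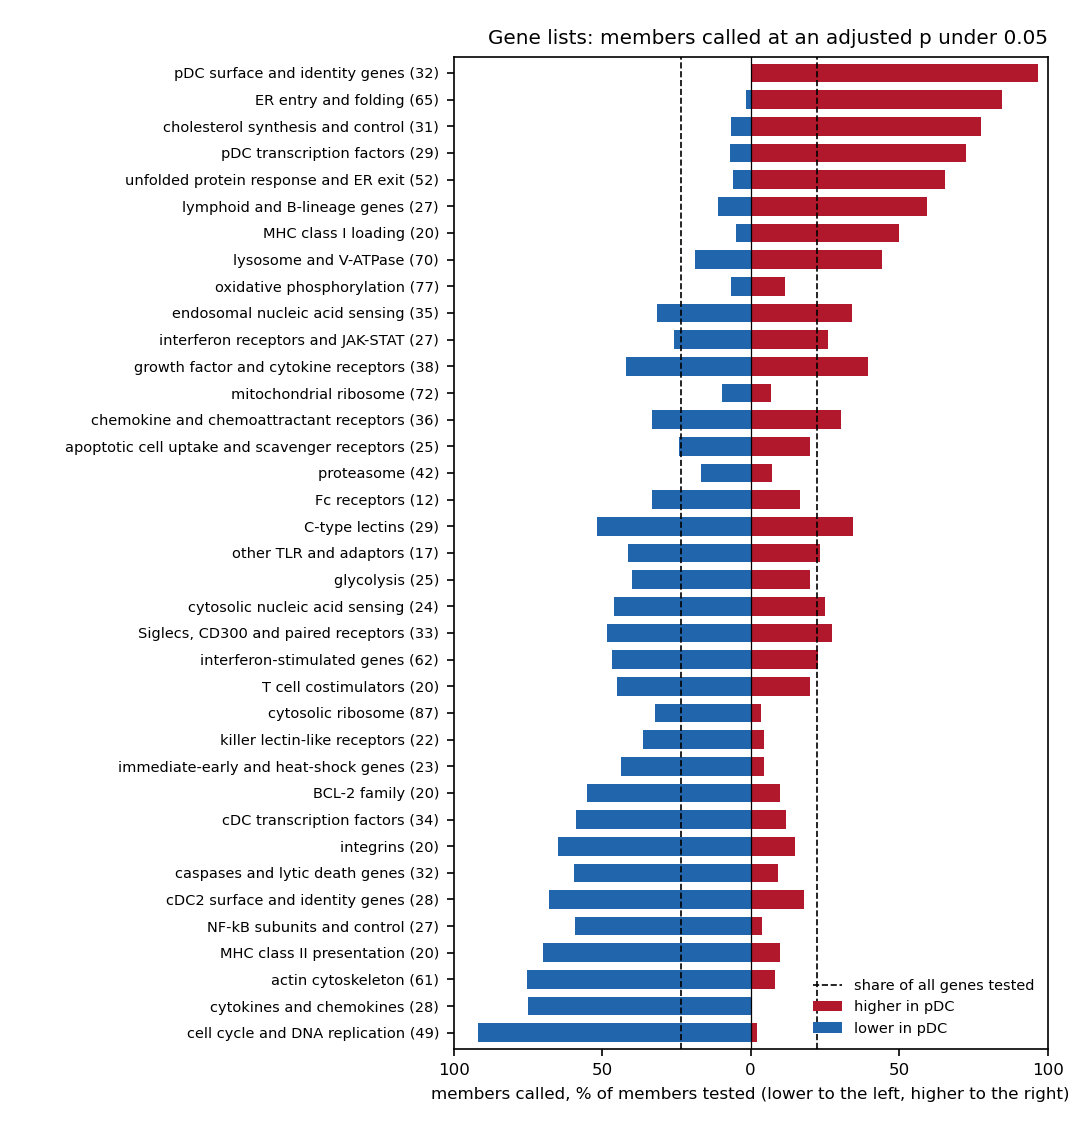
Share of the tested members called higher (red, to the right) and lower in pDC (blue, to the left) for 37 gene lists with at least 12 members tested, with the number tested in brackets and dashed lines at the share over all genes (22.5% higher and 23.3% lower). The pDC identity, ER and cholesterol lists lie at the top, and the cell cycle, cytokine, actin and MHC class II lists at the bottom.

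Genes of some families, several of them neighbours, differed mostly in the same direction. On GRCm38, the build of the files, with gene positions from GENCODE M21, Ly6c2 lies at chr15:75108158-75111970 and Ly6a at chr15:74994877-74998031. Of the Ly6 genes, taken by name and not by position, 7 of 8 tested were higher in pDC and 0 lower, so this is no count of neighbours. Ly6c2 stood at 2008, 1955 and 2715 CPM in pDC and 18.7, 10.9 and 38.003 CPM in cDC2 (log2 fold change 6.63, SE 0.65, adjusted p = 2.42e-05). It shares sequence with Ly6c1, so the split between them is uncertain. Ly6a (Sca-1) stood at 1284, 1159 and 1588 CPM in pDC and 15.1, 9.80 and 50.4 CPM in cDC2 (log2 fold change 5.75, SE 0.73, adjusted p = 0.000139). The MS4A genes on chromosome 19 went the other way, with 0 higher and 7 lower of 10, and Ms4a6b, at chr19:11516512-11531256, stood at 10.5, 5.27 and 25.7 CPM in pDC and 184, 193 and 255 CPM in cDC2 (log2 fold change -3.94, SE 0.49, adjusted p = 0.000118). Klk1 (chr7:44225360-44229618) and Klk1b27 (chr7:44052290-44056712) lie in 1 cluster, and Klk1 stood at 958, 915 and 983 CPM in pDC and 3.86, 0.665 and 3.72 CPM in cDC2 (log2 fold change 8.45, SE 0.59, adjusted p = 2.2e-06) and Klk1b27 at 163, 152 and 132 CPM in pDC and 0.924, 0.140 and 0.478 CPM in cDC2 (log2 fold change 8.13, SE 0.57, adjusted p = 2.4e-06). The kallikreins are close copies, so reads may be shared among them. Of the 5 kallikrein genes tested 4 were higher and 1, Klk8, was lower. Klk8 stood at 1.06, 0.507 and 0 CPM in pDC and 10.8, 10.6 and 11.9 CPM in cDC2 (log2 fold change -4.265, SE 0.67, adjusted p = 0.000543). Of the 10 endothelial and stromal genes tested 3 were higher and 1 lower. Cdh5 (VE-cadherin) stood at 318, 326 and 329 CPM in pDC and 3.67, 1.58 and 0.744 CPM in cDC2 (log2 fold change 7.28, SE 0.46, adjusted p = 1.14e-06) and Kdr (VEGFR2) at 175, 179.8 and 170.3 CPM in pDC and 9.50, 8.23 and 8.98 CPM in cDC2 (log2 fold change 4.30, SE 0.23, adjusted p = 3.9e-07), even over the pDC libraries, while the stromal genes Col1a1, Col1a2 and Col3a1 reached at most 0.385 CPM in any of the 6 libraries.

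The spread among the cDC2 libraries was narrow for most genes called lower, but the test itself disfavours genes that vary between libraries. The counts below are thus narrow by selection and do not measure the part of NK or macrophage RNA. Of 2398 such genes with at least 10 CPM in cDC2, the highest library was a median of 1.21 times the lowest, and 61 genes reached a ratio of 2 and 13 a ratio of 3. The widest were the NK genes Il2rb, with a ratio of 7.55, and Nkg7, with 5.58 (3.15, 1.27 and 1.53 CPM in pDC and 4.43, 7.74 and 24.7 CPM in cDC2). Nkg7 was called (log2 fold change -2.59, SE 0.72, adjusted p = 0.0147), but not without pDC replicate 2 or without cDC2 replicate 3. Of the 20 widest genes 2 were on the NK list and 0 on the macrophage list, and among the others were the early response genes Egr2 and Atf3 and the cell cycle genes Mki67 and Cenpe. Atad5 and Tgtp1, a replication factor and an interferon-inducible GTPase, were wide too, at 21.4, 30.6 and 8.03 and 7.90, 6.41 and 22.8 CPM in cDC2. Among 2457 genes called higher with at least 10 CPM in pDC the median ratio was 1.23, and 121 reached 2 and 36 reached 3, immunoglobulin variable segments leading.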

How the data were processed

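The authors deposited raw read counts per gene for 9 spleen dendritic cell libraries (3 each of pDC, cDC2 and cDC1), and per the labels and the submitters' processing notes single-end reads were aligned to mm10 with STAR and counted with featureCounts, SAMtools and MultiQC being named too. Versions, annotation release and strand setting are not given in the sources used here, so overlapping or antisense genes and near-identical copies may share counts. All 9 libraries were fitted together with edgeR 4.0.16 (R 4.3.3) by quasi-likelihood, with subset as the factor, TMM normalization and the filterByExpr filter at a minimum count of 10, after a test on simulated counts. DESeq2 1.42.0 and limma 3.58.1 (voom) were alternatives. Counts totalled 17104516 to 32453789 in the pDC and cDC2 libraries. Intervals and floors cover counting error only.

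Replicate numbers carry date codes, and deviations from the subset means correlated between same-numbered pDC and cDC2 libraries at r = 0.27, 0.43 and 0.36 over genes, against -0.35 to 0.07 for other pairs, so the numbers pair the samples. The libraries of a subset come from separate sorts of pooled mice, and the subsets of a sort are paired. The main fit had subset as its only factor and left out the pairs. Its p-values thus measure the spread between libraries of a subset, with differences between sorts included. The gene lists and the members named were chosen with earlier results of these data known. Genes named are list members, preferably those with the largest called differences, the highest levels or no call, the 8 largest rises and falls by fold (mean count of at least 100, same direction in 3 pairs) and by CPM, and the genes that varied most among the cDC2 libraries. Promoters and motifs (chromosome 18 left out) were read from RefSeq sequence on GRCm38.p6 with Python 3.11.15. The cDC1 libraries entered the fit, and of their levels only those of Xcr1, Tlr3 and Tlr11 are given. Values of some genes are not reported here.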

Additional observations from a re-analysis of the deposited data

How the results depend on the processing

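With the replicate number as a block, 7663 genes were called in place of 6328, of which 6284 were among the 6328, and each of these kept its direction. The other whole-table alternatives gave 6814 genes with DESeq2, 6649 with limma-voom, 6317 with library size only, 6264 with upper-quartile scaling, 6182 without a filter on low counts, 5018 with at least 10 counts in every library and 5787 with the pDC and cDC2 libraries fitted alone. A further threshold of 1 on the absolute log2 fold change left 3837 genes, 1795 higher and 2042 lower. Leaving out libraries gave between 3585 and 8507 genes, between 1657 and 4206 higher and between 1928 and 4301 lower. The lowest counts were those without sort 1 and the highest those without sort 3, and the cause was not tested. Without sort 1 there were 3585 genes (1657 higher and 1928 lower) and without sort 2 there were 3908 (1865 and 2043).

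Among the genes named, a change of sign occurred only for some that were not called. Over the fits that leave out libraries the log2 fold change ranged over -0.011 to 0.35 for B2m, -0.55 to 0.34 for Cd5l, -0.079 to 0.018 for Ctss, -0.041 to 0.046 for Flt3, -1.48 to 0.34 for Gzma, -1.57 to 0.20 for Itga2, -0.60 to 1.65 for Kcnk12 and -0.87 to 0.67 for Prf1. Flt3 was also at -0.0078 with library size only and at -0.012 with at least 10 counts in every library, and Prf1 at -0.086 with the replicate block and -0.16 with limma-voom. The replicate block changed no call of a gene named beyond those printed beside it. List counts of fewer than 6 members are not followed here. Depth limits genes under about 1 CPM, where 3 counts make up much of a value.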
